A study of Rattus norvegicus with 13 samples.

Results

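The genes of oxidative phosphorylation were compared between rat mammary epithelial cells (MECs) of 2 ages, inside and outside the window of susceptibility (WOS), the age range in which the rat mammary gland is most prone to cancer after exposure to a carcinogen. They were chosen by symbol from a table of 14790 genes, and 91 rows met the rule. Of these, 87 are nuclear genes: 37 subunits of complex I (symbols beginning with Nduf), 7 complex I assembly factors (Ndufaf), 4 of complex II (Sdha to Sdhd), 9 of complex III (Uqcr), 13 of complex IV (Cox4 to Cox8) and 17 listed as Atp5, the older symbols of the ATP synthase. The other 4 rows are transcripts of the mitochondrial genome listed as AY172581.9, AY172581.15, AY172581.19 and AY172581.24. The 13 protein genes of the mitochondrial genome are listed under symbols that begin with Mt-, which the rule did not reach. All 13 are reported beside the 91 members and were added after the table was seen.

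RNA-seq was done on MECs of untreated Wistar-Furth rats, of which 6 were 6 weeks old (within WOS) and 7 were 10 weeks old (outside WOS). Each rat gave 1 library. Ductal fragments were collected on a filter from abdominal and inguinal glands that had been minced and digested with collagenase. Such fragments are mostly epithelial and still carry some stromal and immune cells. Rats are named by the numbers in the labels, 70, 71, 75, 80, 84 and 86 at 6 weeks and 72, 74, 78, 81, 83, 85 and 87 at 10 weeks.

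The respiratory chain passes electrons from NADH (complex I) and succinate (complex II) through complex III to complex IV, where oxygen is reduced. Complexes I, III and IV pump protons across the inner mitochondrial membrane, and the ATP synthase lets them flow back to make ATP. Complex II is encoded wholly in the nucleus. The other complexes combine nuclear subunits with subunits that the mitochondrial genome encodes and that mitochondria transcribe and translate themselves.

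The values are RSEM counts that were scaled for each library and rounded, called normalized counts below, and they sum to between 13261906 and 15659533 per rat. The total before scaling, read from the spacing of low values, ran from about 6920000 in rat 80 to about 23180000 in rat 70 and could not be read for rat 86, so low values are less precise in some rats than in others. All 8 luminal and 5 of 6 basal epithelial markers were present, with means of 36.7 normalized counts or more. Of 8 luminal markers 2 (Cdh1 and Epcam) were higher at 10 weeks, and none of the 5 basal, 4 macrophage or 3 endothelial markers in the table passed the test, although 1 in each of these lists had an unadjusted p under 0.05. Higher at 6 weeks were 3 of 5 fibroblast, 3 of 7 adipocyte, 3 of 4 mast cell, 5 of 6 proliferation and 1 of 2 lymphocyte markers, and 1 mast cell marker, Kit, was higher at 10 weeks. Of the 7 adipocyte markers 4 had a higher mean log2 level at 6 weeks. Summed over each list, the fibroblast markers lay between 105230 and 220582 at 6 weeks and between 18702 and 54383 at 10 weeks. The adipocyte and mast cell sums overlapped between the ages, with means of 2536 and 2279 at 6 weeks and 2708 and 2869 at 10 weeks. The 3 skeletal muscle markers in the table summed to no more than 73 in any rat. The single brown adipocyte marker in the table, Ppara, did not pass the test. In bulk samples fewer cells of a type and less RNA per cell cannot be told apart, and the part of these cell types in the results below was not tested.

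Most nuclear genes of oxidative phosphorylation had a higher mean log2 level within WOS, with overlap between the ages, and few of them passed the test. Of 87 nuclear members 83 had a log2 fold change (6 weeks minus 10 weeks) above 0, against 52.5% of all genes, and their median was 0.50 on the log2 scale (1.41-fold), against 0.03 for all genes. With limma on log2(normalized count + 1) and Benjamini-Hochberg adjustment over all genes, 10 members were called higher at 6 weeks and 2 higher at 10 weeks at an adjusted p under 0.05. That is 11.5% of the members called higher at 6 weeks, where the background over all genes was 8.71% (7.39% were called higher at 10 weeks and 16.1% in either direction). At an unadjusted p under 0.05, 38 members (43.7%) were higher at 6 weeks, beside 16.8% of all genes. No nuclear member separated the ages without overlap, which 3.29% of all genes did in the direction of 6 weeks.

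The complexes had medians that were close to each other, with the assembly factors apart. The median log2 fold change was 0.49 over the complex I subunits, 0.47 over complex II, 0.73 over complex III, 0.49 over complex IV and 0.50 over the Atp5 genes. It was 0.10 over the 7 complex I assembly factors, 5 of which lay above 0. All 17 Atp5 genes, all 13 genes of complex IV and all 4 of complex II lay above 0, as did 36 of 37 complex I subunits and 8 of 9 genes of complex III. The genes called higher at 6 weeks were 5 complex I subunits, 1 assembly factor, 1 gene of complex III and 3 Atp5 genes, and none of complex II or of the Cox genes of complex IV. These groups follow the symbols, so that Ndufa4, since placed in complex IV, counts among the complex I subunits.

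**Figure D1:**
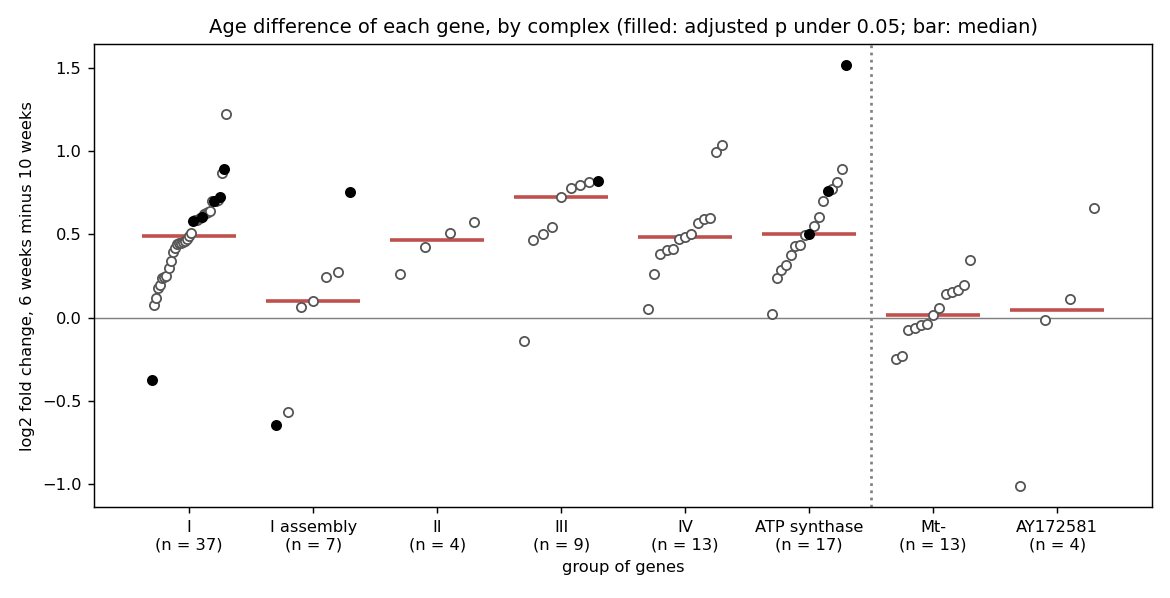
Log2 fold change (6 weeks minus 10 weeks, vertical axis) of each gene, grouped by complex, with nuclear groups left of the dotted line and rows of the mitochondrial genome right of it. Filled points passed an adjusted p under 0.05 and bars are group medians: nuclear medians lie between 0.47 and 0.73 except for the assembly factors at 0.10, and both mitochondrial medians lie near 0.

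The level of the nuclear members spread widely among the rats of each age. Summed over the 87 genes, normalized counts at 6 weeks were 58697 in rat 70, 45418 in rat 71, 30809 in rat 75, 30881 in rat 80, 60003 in rat 84 and 39093 in rat 86. At 10 weeks they ran from 26015 in rat 78 through a median of 29133 to 38006 in rat 85 and 40097 in rat 81. All 6 rats at 6 weeks lay above the median of 10 weeks, but rats 75, 80 and 86 lay within the range of that age. Rats 70 and 84 together held the highest pair of values in 61 of 87 members, and one or the other was the highest rat in 68.

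Without rats 70 and 84, left out after their values were seen, 74 of 87 members stayed above 0 with a median of 0.25. Over all genes 7426 of 14789 then lay above 0, with a median of 0.002. Of the members 1 was called higher at 6 weeks and none higher at 10 weeks. That member was Atp5s, at an adjusted p of 0.0397 in limma, where 3.81% of all genes were called higher at 6 weeks. At an unadjusted p under 0.05, 8 members (9.20%) were then higher at 6 weeks, beside 12% of all genes, so that the members no longer exceeded the background by this count. Since these rats were picked for their high member values, and fewer rats remain, a lower count follows in part from the choice. Leaving out any 1 of rats 70, 84, 72 and 74 brought the members called higher at 6 weeks down to 1, and leaving out rat 81, the highest at 10 weeks, raised them to 22. Over all genes the calls higher at 6 weeks moved in the same direction, from 1288 with all rats. They were 803, 858, 940 and 900 without rats 70, 84, 72 and 74, and 1461 without rat 81. All 12 called members kept their direction in each of the 13 fits that left out 1 rat, and between 2 and 11 of them kept the call. Single members kept it in 3 (Atp5a1, Atp5sl, Ndufb8 and Uqcrq) to 13 (Ndufaf4) of these fits. The log2 of the total before scaling was also used as a term in limma, in a fit that leaves out rat 86. In it the calls of Atp5s (adjusted p = 0.0594), Ndufa4 (0.0508), Ndufaf3 (0.0553) and Ndufb8 (0.083) were lost in the same direction. It kept 8 of the 12 calls, and leaving out rat 86 without the term kept 7. The losses therefore cannot be told apart from the loss of that rat.

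Other measures moved with this level in some rats and not in others. The totals before scaling were highest in rats 70 (about 23180000), 84 (22250000) and 71 (18390000), and with the log2 of that total as a term, in the 12 rats that have one, 8 members were called higher at 6 weeks with a median of 0.41. In the same 12 rats without the term, 5 members were called higher at 6 weeks with a median of 0.53. Over all genes 1202 were called higher at 6 weeks with the term and 1221 without it. Rats 70, 84 and 71 also had the highest nuclear sums, at 58697, 60003 and 45418. Rat 85 had a total of about 16440000 and a nuclear sum of 38006. Apart from rat 81, rats with a total of about 13610000 or less had nuclear sums between 26015 (rat 78) and 30881 (rat 80). Rats 83 and 81 departed from this order. Rat 83 had a total of about 16330000 and a nuclear sum of 28619, whereas rat 81 had about 11720000 and a nuclear sum of 40097. Of the 84 cytosolic ribosomal protein genes (Rpl and Rps) none passed the test. At an unadjusted p under 0.05, 6 (7.14%) were higher at 6 weeks, beside 16.8% of all genes. These genes summed to 456814 in rat 70, 433100 in rat 84, 395163 in rat 71 and 405128 in rat 85, and to at most 286113 in any other rat. Rats 81 and 86, the latter with a nuclear sum of 39093, were among these others, at 259386 and 247826. The 6 proliferation markers summed to between 3716 and 6911 at 6 weeks, with rats 84, 86 and 70 highest, and to between 2241 and 3173 at 10 weeks, with rat 81 highest as it was for the nuclear members. The part of depth, ribosomal protein genes and proliferation in the difference was not tested beyond the fit with the total as a term.

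**Figure D2:**
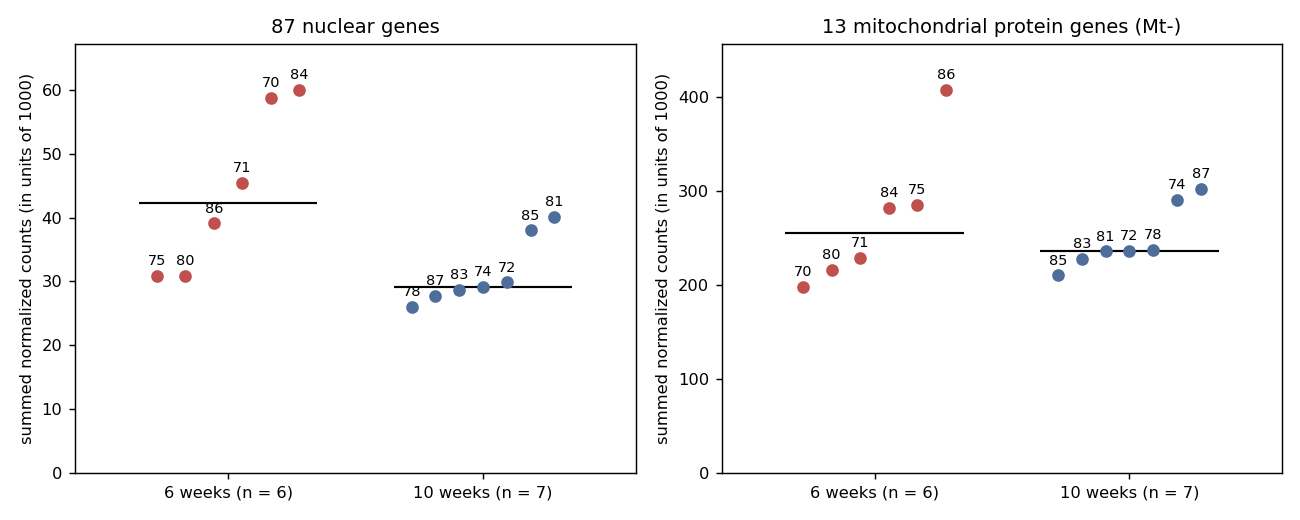
Summed normalized counts (axes in units of 1000) of the 87 nuclear members (left) and of the 13 mitochondrial protein genes (right) in each rat, by age, with rat numbers and medians (bars). On the left, rats 70 and 84 stand highest at 58697 and 60003, and on the right rat 86 stands highest at 407357.

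The age difference was also described within sets of rats that were cut from these same values. With the age means taken out, the leading component of all genes, the members among them, held 28.3% of the variation left and divided the rats at its widest gap into a larger set (70, 71, 84 and 86 at 6 weeks, 72, 74, 85 and 87 at 10 weeks) and a smaller set (75 and 80 at 6 weeks, 78, 81 and 83 at 10 weeks). The labels do not say what separates these sets. In the larger set alone the lowest nuclear sum at 6 weeks (39093, rat 86) was above the highest at 10 weeks (38006, rat 85), 52 members were called higher at 6 weeks, where the background was 13.4% of all genes, and the median was 0.80. In the smaller set alone rat 81 was higher than both rats at 6 weeks, the median was -0.06, 38 of 87 members lay above 0 and no member was called, where the background was 0% of all genes. In that set 1 member had an unadjusted p under 0.05 in the direction of 6 weeks, beside 7.9% of all genes.

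The difference between the sets was computed with an interaction term in limma, added after the data were seen. The sets were cut from these same values, the members among them. The calls and p-values of the interaction and of the fits by set are therefore a description and no test of a difference between sets. None of the 87 members passed an adjusted p under 0.05 (smallest 0.217), beside 0.0406% of all genes. At an unadjusted p under 0.05 the age difference was larger in the larger set for 38 members, beside 7.55% of all genes, and for none was it smaller. Of the 17 rows of the mitochondrial genome none passed (smallest adjusted p 0.347). With the set as a term in the fit of all rats, 13 members were called higher at 6 weeks and 2 higher at 10 weeks. Over all 14790 genes 1760 and 1574 were called in these directions.

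**Figure D3:**
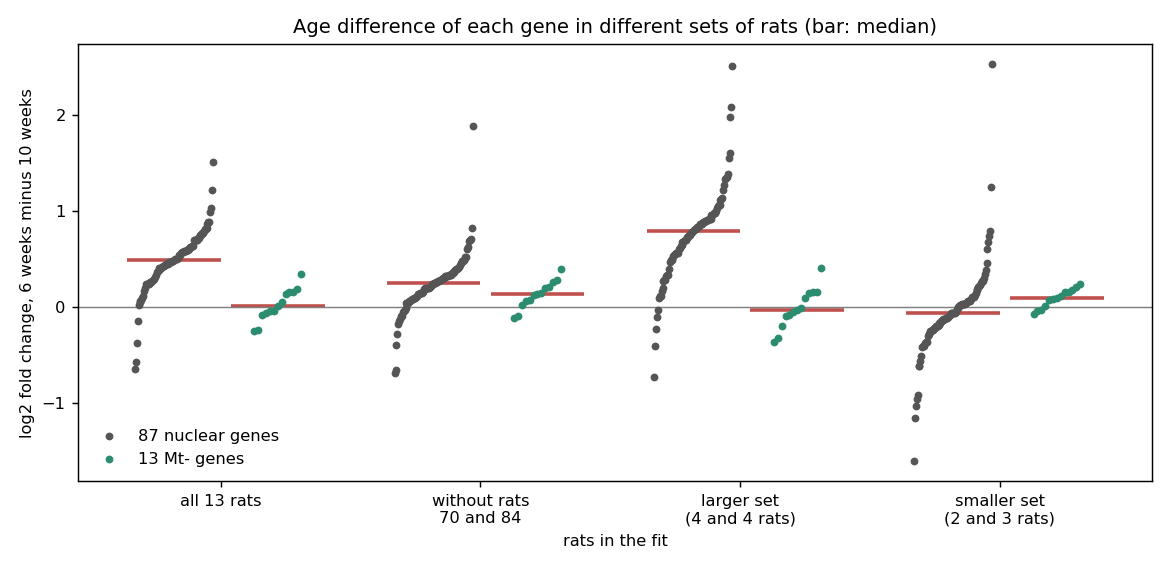
Log2 fold change (6 weeks minus 10 weeks, vertical axis) of the 87 nuclear members (grey) and the 13 Mt- genes (green) in fits of all 13 rats, without rats 70 and 84, and in each set of rats alone, with medians as bars. The nuclear median is 0.50, 0.25, 0.80 and -0.06 from left to right, and the Mt- median stays between -0.03 and 0.14.

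Among the subunits of complex I, the entry point for electrons from NADH, 5 of 37 were called higher at 6 weeks and 1 higher at 10 weeks (13.5% and 2.70%, beside 8.71% and 7.39% of all genes). Ndufb5, an accessory subunit of the membrane arm, had 153 to 399 normalized counts at 6 weeks (median 277.5) and 78 to 243 at 10 weeks (median 140). Of 6 rats at 6 weeks 4 lay above every rat at 10 weeks, and the log2 fold change was 0.89 ± 0.27 (SE, adjusted p = 0.0383 in limma). Ndufs3, a core subunit of the peripheral arm, ran from 79 to 184 (median 128) and from 61 to 102 (median 76), with 5 of 6 rats above the range of 10 weeks and a log2 fold change of 0.72 ± 0.20 (adjusted p = 0.028).

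Ndufa4, first described in complex I and since placed in complex IV, had 681 to 1437 normalized counts at 6 weeks (median 1147) and 469 to 939 at 10 weeks (median 613), with a log2 fold change of 0.70 ± 0.21 (adjusted p = 0.0368). Rats 75 and 80 were the only ones at 6 weeks within the range of 10 weeks. Ndufb8, an accessory subunit of the membrane arm, had 299 to 536 (median 413) against 211 to 392 (median 260), a log2 fold change of 0.58 ± 0.18 (adjusted p = 0.0443).

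Ndufab1 went the other way. It encodes the mitochondrial acyl carrier protein, which is a subunit of complex I and also carries growing fatty acids in mitochondria. It had 104 to 150 normalized counts at 6 weeks (median 126.5) and 141 to 184 at 10 weeks (median 163), a log2 fold change of -0.37 ± 0.11 (adjusted p = 0.0369). Only rat 86 at 6 weeks reached the range of 10 weeks. This call was lost under library size scaling (adjusted p = 0.0547), under scaling on rows outside the mitochondrial genome (adjusted p = 0.139) and with a mean-variance trend (adjusted p = 0.0514), in the same direction.

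The core subunits of complex I that carry its flavin or iron-sulfur clusters had log2 fold changes above 0 without passing the test. The log2 fold changes were 0.87 ± 0.31 for Ndufs8 (adjusted p = 0.0732), 0.64 ± 0.25 for Ndufv1 (adjusted p = 0.103), 0.51 ± 0.24 for Ndufv2 (adjusted p = 0.163), 0.45 ± 0.49 for Ndufs7 (adjusted p = 0.561) and 0.42 ± 0.24 for Ndufs1 (adjusted p = 0.257). Ndufa11, named here after its values were seen, had the highest log2 fold change of the group at 1.22 ± 0.49 (adjusted p = 0.105), and its values of 123 to 388 at 6 weeks and 22 to 273 at 10 weeks overlapped widely. Ndufv3 is listed in 2 rows, neither of which passed the test.

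The remaining accessory subunits of complex I, which surround its core and do not carry electrons, did not pass the test and had log2 fold changes above 0 throughout. Those of the membrane arm listed as Ndufb ran from 0.08 ± 0.17 for Ndufb10 (88 to 157 normalized counts at 6 weeks and 95 to 161 at 10 weeks) to 0.70 ± 0.33 for Ndufb6 (58 to 206 and 50 to 133). Ndufb11, which lies on the X chromosome in mammals, had 217 to 415 (median 305.5) and 146 to 341 (median 199), a log2 fold change of 0.62 ± 0.22 (adjusted p = 0.0752). Ndufb2, Ndufb3, Ndufb4, Ndufb7 and Ndufb9 lay between 0.45 and 0.59.

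Those listed as Ndufa with a number ran from 0.18 ± 0.21 for Ndufa5 to 0.71 ± 0.30 for Ndufa12, leaving aside Ndufa4, Ndufa4l2 and Ndufa11, which are given elsewhere. Ndufa2, Ndufa7, Ndufa9 and Ndufa12 had an unadjusted p under 0.05, with log2 fold changes of 0.70, 0.63, 0.64 and 0.71, and Ndufa1, Ndufa3, Ndufa6, Ndufa8 and Ndufa10 lay between 0.24 and 0.46. Ndufs4 and Ndufs5 had log2 fold changes of 0.30 and 0.47, and Ndufc1 and Ndufc2 had 0.34 and 0.60. In each of these subunits the ranges of the ages overlapped, and no more than 4 of 6 rats at 6 weeks lay above every rat at 10 weeks.

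Among the 7 assembly factors of complex I, proteins that help to build the complex and are not part of it, 1 was called higher at each age. That is 14.3% each way, beside 8.71% and 7.39% of all genes called higher at 6 and at 10 weeks. Ndufaf4 had 510 to 755 normalized counts at 6 weeks (median 632.5) and 731 to 1314 at 10 weeks (median 982). Of 6 rats at 6 weeks 5 lay below every rat at 10 weeks, and it fell by 0.64 ± 0.15 on the log2 scale at 6 weeks relative to 10 weeks (adjusted p = 0.0127), the lowest adjusted p of any nuclear member. It was called in all 13 fits that left out 1 rat, and without rats 70 and 84 its adjusted p was 0.0572. Ndufaf3 had 44 to 107 at 6 weeks (median 58.5) and 29 to 53 at 10 weeks (median 33), a log2 fold change of 0.75 ± 0.23 (adjusted p = 0.044), with 3 of 6 rats above the range of 10 weeks. This call was lost under library size scaling (adjusted p = 0.0508).

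Ndufaf1, Ndufaf2, Ndufaf5, Ndufaf6 and Ndufaf7 did not pass the test and had log2 fold changes between -0.57 and 0.27. Ndufaf6 was at 0 in rats 80 and 78, the rats with the lowest totals before scaling (about 6920000 and 7150000).

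Complex II oxidizes succinate, is shared with the citric acid cycle and has no mitochondrially encoded part. None of its 4 genes passed the test, and 3 had an unadjusted p under 0.05 in the direction of 6 weeks, beside 16.8% of all genes. Sdha, its flavoprotein, had 572 to 1035 normalized counts at 6 weeks (median 694.5) and 427 to 778 at 10 weeks (median 503), a log2 fold change of 0.51 ± 0.19 (adjusted p = 0.078 in limma). The iron-sulfur protein Sdhb had a log2 fold change of 0.27 ± 0.17 (adjusted p = 0.301), and the membrane anchors Sdhc and Sdhd had 0.43 ± 0.17 (adjusted p = 0.109) and 0.58 ± 0.21 (adjusted p = 0.0823). In all 4 genes rats 70 and 84 held the highest pair of values.

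In complex III, which passes electrons from ubiquinol to cytochrome c, Uqcrq was called higher at 6 weeks. This small subunit, which binds ubiquinone, had 163 to 296 normalized counts at 6 weeks (median 226.5) and 90 to 274 at 10 weeks (median 112), a log2 fold change of 0.82 ± 0.24 (adjusted p = 0.034). Rat 81 had 274 at 10 weeks, where the next rat had 126 and so lay below all rats at 6 weeks. Leaving out rat 81 gave a log2 fold change of 1.01 (adjusted p = 0.00159).

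The core proteins Uqcrc1 and Uqcrc2 had log2 fold changes of 0.50 ± 0.23 (adjusted p = 0.162) and 0.55 ± 0.22 (adjusted p = 0.109), and the Rieske iron-sulfur protein Uqcrfs1 had 0.47 ± 0.21 (adjusted p = 0.149). Uqcrh, the hinge protein, named after its values were seen, had 694 to 1618 normalized counts at 6 weeks (median 1081.5) and 444 to 1017 at 10 weeks (median 613), with a log2 fold change of 0.73 ± 0.24 that just missed the threshold (adjusted p = 0.0526). Uqcrb is listed in 2 rows, with log2 fold changes of 0.78 and -0.14, so reads may be split between them and the direction of that gene is uncertain. Uqcr10 and Uqcr11, the smallest subunits, had log2 fold changes of 0.80 ± 0.77 and 0.81 ± 0.40 (adjusted p = 0.505 and 0.186), and Uqcr10 was low throughout, at 6 to 55 normalized counts at 6 weeks and 0 to 51 at 10 weeks, with the value of 0 in rat 74.

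In complex IV, cytochrome c oxidase, none of the 13 genes passed the test. At an unadjusted p under 0.05, 5 (38.5%) were higher at 6 weeks, beside 16.8% of all genes. Cox4i1, the subunit found in most tissues, had 795 to 1865 normalized counts at 6 weeks (median 1210.5) and 708 to 1241 at 10 weeks (median 986), a log2 fold change of 0.41 ± 0.21 (adjusted p = 0.21). Cox5a, a regulatory subunit, had 796 to 1202 (median 1161) and 865 to 1238 (median 1062), a log2 fold change of 0.05 ± 0.13 (adjusted p = 0.807). Cox5b had 0.38 ± 0.24 (adjusted p = 0.298).

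Several complex IV subunits have tissue forms, and the table holds both forms for some of them. Cox4i2, the lung form that low oxygen can induce, had at most 19 normalized counts in any rat, and the log2 ratio of Cox4i1 to Cox4i2 was 6.74 ± 0.33 (SD, n = 6) at 6 weeks and 7.33 ± 0.94 (SD, n = 7) at 10 weeks. The ranges of this ratio overlapped. It was computed with 1 added to each value, and Cox4i2 had a normalized count of 1 in rats 72 and 74, so that the ratio depends there on the added 1 and on the scaling. Cox6b1 had 409 to 898 at 6 weeks and 328 to 550 at 10 weeks (log2 fold change 0.59 ± 0.22, adjusted p = 0.078), whereas its testis form Cox6b2 had 0 to 28 and 1 to 12.

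Cox7a2 had a log2 fold change of 0.47 ± 0.28 (adjusted p = 0.267), and Cox7a2l, a related protein that takes part in joining complexes III and IV, had 0.26 ± 0.19 (adjusted p = 0.366). The log2 ratio of Cox7a2 to Cox7a2l was -0.64 ± 0.54 (SD, n = 6) at 6 weeks and -0.85 ± 0.38 (SD, n = 7) at 10 weeks, with overlap. Ndufa4l2, the relative of Ndufa4 that low oxygen induces, had 5 to 36 normalized counts at 6 weeks and 8 to 24 at 10 weeks (log2 fold change 0.12 ± 0.42, adjusted p = 0.87). Cox6a1, Cox6c, Cox7b, Cox7c and Cox8a had log2 fold changes of 0.49, 0.57, 0.60, 0.50 and 0.41 and did not pass the test. The paired forms Cox6a2, Cox6c2, Cox7a1, Cox7b2 and Cox8b are not in the table, so no ratio was computed for them.

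Of the 17 Atp5 genes 3 (17.6%) were called higher at 6 weeks, beside 8.71% of all genes, and 10 (58.8%) had an unadjusted p under 0.05 in that direction, beside 16.8%. Atp5a1, the alpha subunit of the catalytic head, had 1937 to 4670 normalized counts at 6 weeks (median 3040) and 1353 to 2809 at 10 weeks (median 1700). Rats 70, 71, 84 and 86 lay above every rat at 10 weeks, and the log2 fold change was 0.76 ± 0.24 (adjusted p = 0.0461 in limma). The beta subunit Atp5b, which holds the catalytic sites, had 4759 to 10373 (median 6830.5) and 4058 to 7073 (median 5342), with a log2 fold change of 0.43 ± 0.21 that did not pass the test (adjusted p = 0.177), and the gamma subunit Atp5c1 of the central stalk had 0.32 ± 0.16 (adjusted p = 0.202).

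The other called genes listed as Atp5 do not encode core subunits of the ATP synthase. Atp5s, named Dmac2l in RefSeq, had 28 to 117 normalized counts at 6 weeks (median 45.5) and 4 to 28 at 10 weeks (median 22), the largest log2 fold change of any member at 1.52 ± 0.43 (adjusted p = 0.0316). Its highest value was in rat 80, a rat with a low nuclear sum, and not in rats 70 (28) or 84 (30). Atp5sl, named Dmac2 in RefSeq, is known as an assembly factor of complex I. It had 150 to 264 (median 198) and 109 to 171 (median 142), a log2 fold change of 0.50 ± 0.15 (adjusted p = 0.0405), a call lost under library size scaling (adjusted p = 0.0509).

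Atp5i and Atp5e, small subunits named after their values were seen, did not pass the test. Atp5i had a log2 fold change of 0.89 ± 0.29 (adjusted p = 0.053) and Atp5e, the epsilon subunit of the central stalk, had 0.81 ± 0.30 (adjusted p = 0.0785). The proteolipid that forms the rotor ring is encoded by 3 genes that give the same mature protein. Atp5g1 had 161 to 404 normalized counts at 6 weeks (median 223.5) and 114 to 287 at 10 weeks (median 146), Atp5g2 had 418 to 1358 (median 668) and 291 to 697 (median 448), and Atp5g3 had 680 to 1453 (median 1171) and 589 to 959 (median 704). Their log2 fold changes were close, at 0.61 ± 0.27, 0.78 ± 0.30 and 0.55 ± 0.19 (adjusted p = 0.137, 0.0963 and 0.0699), so that none passed the test.

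The peripheral stalk, which holds the head in place, had lower values for some of its subunits. Atp5o had a log2 fold change of 0.70 ± 0.29 (adjusted p = 0.115), Atp5h 0.29 ± 0.21 (adjusted p = 0.369) and Atp5j 0.02 ± 0.24 (adjusted p = 0.961), the last with 178 to 520 normalized counts at 6 weeks and 186 to 463 at 10 weeks. The delta subunit Atp5d of the central stalk and the membrane subunits Atp5j2 and Atp5l had 0.44, 0.24 and 0.50. The row of Atp5f1, a further part of the peripheral stalk, has the same value in every rat as another row of the table, so its counts may be shared, and it did not pass the test (adjusted p = 0.229).

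**Figure D4:**
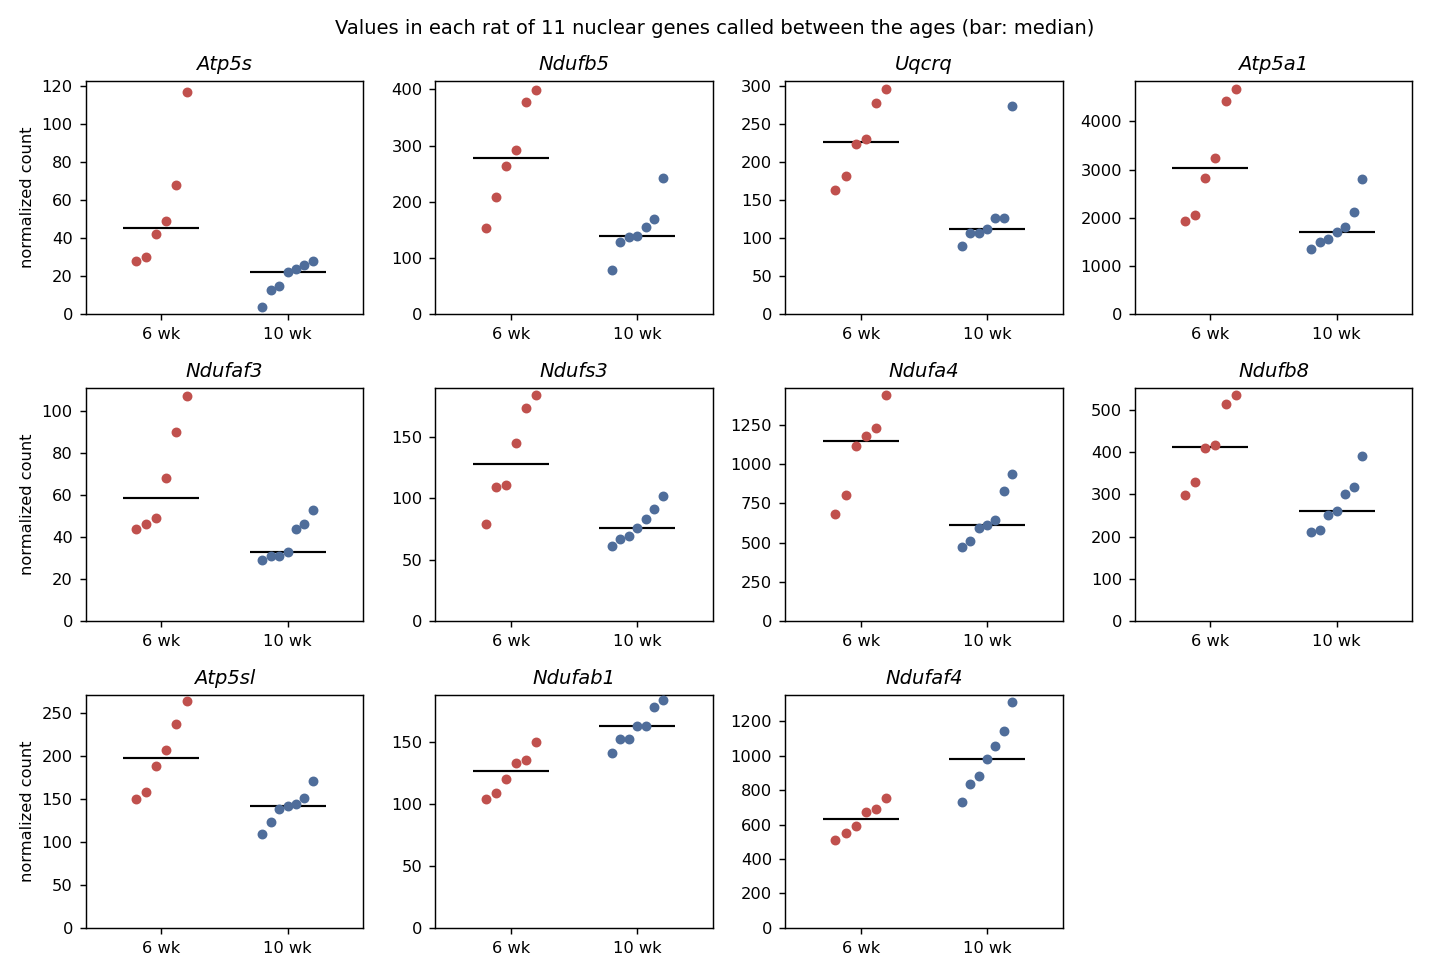
Normalized count (vertical axes, from 0) in each rat of 11 nuclear members with an adjusted p under 0.05, at 6 weeks (red) and 10 weeks (blue), with medians as bars. In the 9 genes shown that were called higher at 6 weeks the ages overlap or meet in each panel, and Ndufab1 and Ndufaf4 are higher at 10 weeks.

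The genes of the mitochondrial genome did not follow the nuclear ones. Of 13 Mt- genes 7 had a log2 fold change above 0, the median was 0.02, none passed the test and none had an unadjusted p under 0.05 in either direction. The smallest adjusted p was 0.17, for Mt-nd3, a complex I subunit with 4053 to 8282 normalized counts at 6 weeks (median 5327.5) and 3544 to 5176 at 10 weeks (median 4178), a log2 fold change of 0.35 ± 0.16. None of the 13 was called in any of the alternative fits.

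By complex, the subunits encoded in mitochondria lay lower than most nuclear subunits they join. Of the nuclear complex I subunits 27 of 37 had a larger log2 fold change than any of the 7 Mt-nd genes, whose median was -0.06 (range -0.25 to 0.35). Mt-nd1, Mt-nd2, Mt-nd4, Mt-nd4l, Mt-nd5 and Mt-nd6 had log2 fold changes of -0.06, -0.23, -0.25, -0.08, 0.14 and 0.20. In complex III, Mt-cyb, cytochrome b, had 0.02 ± 0.20 beside a nuclear median of 0.73.

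In complex IV the 3 catalytic core subunits Mt-co1, Mt-co2 and Mt-cox3 had log2 fold changes of 0.16 ± 0.16, 0.17 ± 0.16 and 0.06 ± 0.16, below 12 of 13 nuclear subunits. The proton channel subunit Mt-atp6 had -0.04 ± 0.19 and Mt-atp8 had -0.04 ± 0.24, below all 17 Atp5 genes. The sign of Mt-atp6, Mt-atp8, Mt-nd1 and Mt-nd4l changed under scaling on rows outside the mitochondrial genome, and that of Mt-cyb under median-ratio scaling. Whether nuclear and mitochondrial genes differ in their response to age was not tested, since both lists were chosen with results known.

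The Mt- genes also differed in which rats were high. Their sum was 197874 in rat 70, 229101 in rat 71, 284951 in rat 75, 215878 in rat 80, 282195 in rat 84 and 407357 in rat 86, and at 10 weeks it ran from 210157 in rat 85 through a median of 236238 to 301905 in rat 87. Rat 86 was the highest rat for all 13 Mt- genes, whereas it was the highest for 3 of 87 nuclear members. Rat 70 was among the highest pair for the nuclear sum and was the lowest of all rats for the Mt- sum. At 10 weeks rat 87 was the highest for the Mt- sum and rat 85 the lowest, while for the nuclear sum rat 85 lay well above rat 87.

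The ratio of the Mt- sum to the nuclear sum, which does not depend on the scaling, therefore ran from 3.37 in rat 70 to 10.9 in rat 87. At 6 weeks it was 6.63 ± 2.76 (SD, n = 6) and at 10 weeks 8.18 ± 2.00 (SD, n = 7), with overlapping ranges of 3.37 to 10.4 and 5.53 to 10.9. The mean log2 level of the Mt- genes minus that of the nuclear members was 5.30 ± 0.68 (SD, n = 6) at 6 weeks and 5.76 ± 0.44 (SD, n = 7) at 10 weeks. On that measure 3 of 6 rats at 6 weeks (70, 71 and 84) lay below every rat at 10 weeks and 2 of 6 lay above the median of that age.

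The 4 rows listed as AY172581 took up a large share of every library. Together they held 16.1% to 31.0% of the column total at 6 weeks, 21.4% ± 5.18 (SD, n = 6), and 16.4% to 24.1% at 10 weeks, 19.1% ± 2.71 (SD, n = 7), with wide overlap. Since all 13 protein genes are listed as Mt-, these rows are other transcripts of the mitochondrial genome, and the table pairs no gene name with them. Most of the share came from AY172581.24, with 1918442 to 4374229 normalized counts at 6 weeks (median 2514061) and 2024187 to 3258898 at 10 weeks (median 2278405).

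AY172581.24 had a log2 fold change of 0.11 ± 0.18 (adjusted p = 0.702 in limma) and AY172581.9 had -0.02 ± 0.17 (adjusted p = 0.96), the latter with a sign that changed under library size scaling. Both were highest in rat 86, as the Mt- genes were. AY172581.19 and AY172581.15 were low, at no more than 35 and 21 normalized counts in any rat, and did not pass the test (adjusted p = 0.348 and 0.389). Because these rows are so abundant and vary between rats, they bear on any scaling by totals. With columns scaled on rows outside the mitochondrial genome, the median of all genes was 0.12, 20 nuclear members were called higher at 6 weeks and 1 higher at 10 weeks, and over all genes 1746 were called higher at 6 weeks and 559 higher at 10 weeks in place of 1288 and 1093.

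A list of 41 genes for proteins that assemble the complexes or carry electrons between them had 38 members in the table, with a median of 0.23 on the log2 scale, 2 called higher at 6 weeks and 2 higher at 10 weeks (5.26% each way, below the 8.71% and 7.39% of all genes). Sdhaf1, which helps to insert iron-sulfur clusters into complex II, had 111 to 161 normalized counts at 6 weeks (median 125.5) and 65 to 142 at 10 weeks (median 71), a log2 fold change of 0.71 ± 0.18 (adjusted p = 0.0198). Rat 85, at 142, was the only rat at 10 weeks within the range of 6 weeks. Timmdc1, a complex I assembly factor, had 48 to 68 (median 59.5) and 31 to 64 (median 40), a log2 fold change of 0.55 ± 0.16 (adjusted p = 0.0334), a call lost with a mean-variance trend (adjusted p = 0.0608) and with the total before scaling as a term (adjusted p = 0.0539).

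Higher at 10 weeks were Cox20, a chaperone for the Mt-co2 protein, and Ttc19, which takes part in the upkeep of complex III. Cox20 had 170 to 359 normalized counts at 6 weeks (median 223) and 329 to 580 at 10 weeks (median 386), a log2 fold change of -0.76 ± 0.17 (adjusted p = 0.0123). Ttc19 had 185 to 294 (median 232) and 293 to 429 (median 355), a log2 fold change of -0.62 ± 0.14 (adjusted p = 0.0135). In both, 5 of 6 rats at 6 weeks lay below every rat at 10 weeks, and both were called in all 13 fits that left out 1 rat. Without rats 70 and 84 their adjusted p was 0.0782 and 0.0883, and that of Sdhaf1 and Timmdc1 was 0.12 and 0.164.

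Few regulators of mitochondrial biogenesis and of the expression of the mitochondrial genome passed the test. Of 37 listed genes 35 were in the table, none was called higher at 6 weeks in limma (3 had an unadjusted p under 0.05), where 8.71% of all genes were, 3 (8.57%) were called higher at 10 weeks, beside 7.39% of all genes, and the median log2 fold change was -0.03. Nrf1 encodes a transcription factor known to bind promoters of many respiratory chain genes. It had 364 to 457 normalized counts at 6 weeks (median 432) and 492 to 633 at 10 weeks (median 547), without overlap (as for 2.78% of all genes in this direction), and fell by 0.40 ± 0.09 on the log2 scale at 6 weeks relative to 10 weeks (adjusted p = 0.0126). Its call was lost under library size scaling (adjusted p = 0.0635) and under scaling on rows outside the mitochondrial genome (adjusted p = 0.0594).

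Pprc1, a coactivator related to PGC-1 that works with NRF1, had 1563 to 2794 at 6 weeks (median 2096.5) and 2444 to 4016 at 10 weeks (median 3486), a log2 fold change of -0.70 ± 0.16 (adjusted p = 0.0137). Tfb1m, which methylates the ribosomal RNA of mitochondria, had 48 to 69 (median 57) and 58 to 108 (median 89), a log2 fold change of -0.55 ± 0.16 (adjusted p = 0.0373). The call of Tfb1m was lost under both of those scalings (adjusted p = 0.0544 and 0.0935) and without rats 70 and 84 (adjusted p = 0.12), and it was kept in 4 of 13 fits that left out 1 rat. For Pprc1 rats 75 and 80 at 6 weeks were within the range of 10 weeks, and Nrf1 and Pprc1 were called in all 13 fits that left out 1 rat. Without rats 70 and 84 Pprc1 was no longer called (adjusted p = 0.0854).

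Other regulators did not pass the test. Tfam, which packages mitochondrial DNA and starts its transcription, had a log2 fold change of 0.09 ± 0.16 (adjusted p = 0.746), Gabpa, the DNA-binding part of NRF2, had -0.03 ± 0.12 (adjusted p = 0.901), Esrra had 0.43 ± 0.37 (adjusted p = 0.443) and Yy1 had -0.07 ± 0.10 (adjusted p = 0.642). Ppargc1a, the gene of PGC-1 alpha, had at most 23 normalized counts in any rat and a log2 fold change of 1.10 ± 0.44 (adjusted p = 0.103).

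**Figure D5:**
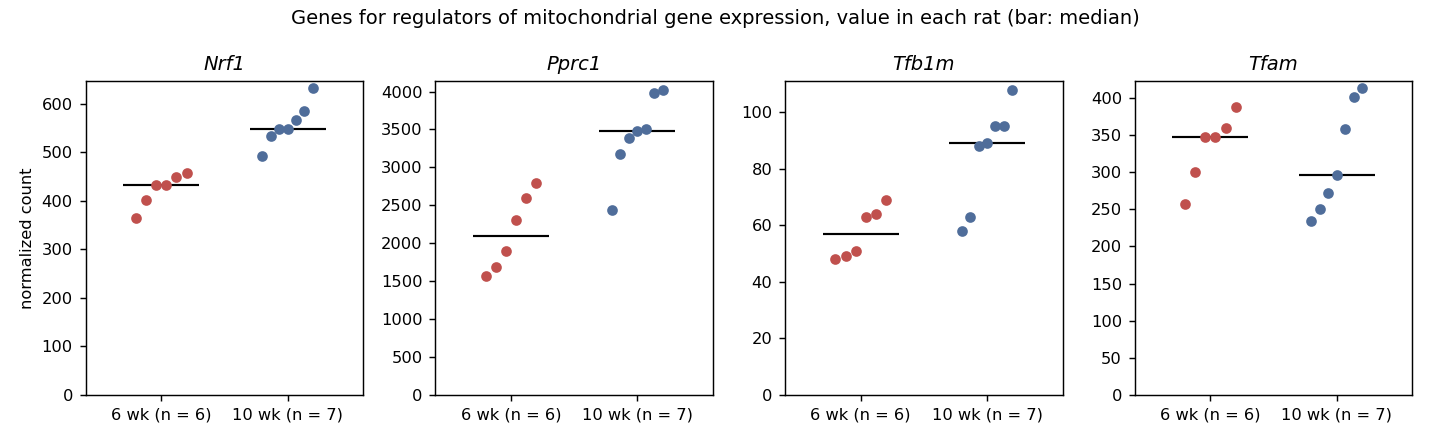
Normalized count (vertical axes, from 0) of Nrf1, Pprc1, Tfb1m and Tfam in each rat at 6 weeks (red) and 10 weeks (blue), with medians as bars. Nrf1 separates the ages, at 364 to 457 against 492 to 633, Pprc1 and Tfb1m overlap slightly, and Tfam overlaps widely.

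With Nrf1 called between the ages under the deposited scaling, the promoters of the nuclear members were searched for sites of this and related factors. Promoters were taken from RefSeq on the GRCr8 build as windows of 300 bases, from 250 before to 50 after the start of the gene. All 85 nuclear symbols matched a RefSeq gene, 17 of them through an older symbol, and 74 had a window. Each motif was searched by exact letters on both strands: GCGCATGCG for the core of the NRF1 site, CCGGAAGT for the ETS site that GABP binds, TCAAGGTCA for the ERR site and AAGATGGCG for the YY1 site.

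The NRF1 core was found in 8 of 74 windows (10.8%), against 1.52% of all 33469 RefSeq promoter windows. The YY1 site was found in 9 (12.2%, against 1.73%), the ETS site in 7 (9.46%, against 3.81%) and the ERR site in 2 (2.7%, against 0.433%). The background windows belong to 27457 genes, some with more than 1 window, and were not limited to genes measured here. Counted by gene, 1.7% of them held the NRF1 core. These counts describe letters in the windows and do not show binding.

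The 8 genes with the NRF1 core were Atp5g2, Atp5i, Atp5l, Atp5o, Ndufaf4, Ndufaf5, Ndufa11 and Uqcrc1, with log2 fold changes of 0.78, 0.89, 0.50, 0.70, -0.64, 0.06, 1.22 and 0.50. Of these 8 only Ndufaf4 was called, higher at 10 weeks, beside 16.1% of all genes called in either direction. The log2 fold changes of all the others lay above 0. Whether Nrf1 bears on any of these genes was not tested. Among the genes called higher at 6 weeks, Uqcrq and Atp5a1 held the ETS site, at 22 and 61 bases before the start, and Ndufb8 held the YY1 site just after the start.

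The windows shown are those of the called member with the NRF1 core (Ndufaf4), 2 members with this core and larger differences in the other direction that were not called (Ndufa11 and Atp5i), and the called members with the ETS site (Uqcrq) and the YY1 site (Ndufb8). Each is printed 5′ to 3′ on the strand of the gene, with the motifs in capitals. Where the NRF1 core and its reverse complement overlap, the capitals run over both, and in Ndufa11 they hold 2 overlapping copies of the core.
Ndufaf4 (chr5:43401545-43401844, plus strand, GRCr8): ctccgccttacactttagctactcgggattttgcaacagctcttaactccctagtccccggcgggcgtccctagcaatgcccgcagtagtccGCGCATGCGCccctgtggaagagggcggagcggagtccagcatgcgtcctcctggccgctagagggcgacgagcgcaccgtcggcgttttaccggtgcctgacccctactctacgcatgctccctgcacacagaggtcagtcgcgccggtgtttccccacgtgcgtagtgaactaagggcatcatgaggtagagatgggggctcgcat
Ndufa11 (chr9:1637364-1637663, plus strand, GRCr8): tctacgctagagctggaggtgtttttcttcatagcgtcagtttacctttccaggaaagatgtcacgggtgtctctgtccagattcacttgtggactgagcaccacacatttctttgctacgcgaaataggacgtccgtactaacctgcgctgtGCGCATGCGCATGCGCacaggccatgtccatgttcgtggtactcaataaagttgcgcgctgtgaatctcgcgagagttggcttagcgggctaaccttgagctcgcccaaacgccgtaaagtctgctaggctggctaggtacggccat
Atp5i (chr14:1464610-1464909, plus strand, GRCr8): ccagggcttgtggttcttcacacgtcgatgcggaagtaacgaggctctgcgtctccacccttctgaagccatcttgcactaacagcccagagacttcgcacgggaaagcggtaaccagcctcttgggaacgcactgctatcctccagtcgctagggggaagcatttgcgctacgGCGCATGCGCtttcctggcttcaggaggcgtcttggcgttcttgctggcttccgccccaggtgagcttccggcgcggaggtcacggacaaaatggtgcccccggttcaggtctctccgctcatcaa
Uqcrq (chr10:38089929-38090228, minus strand, GRCr8): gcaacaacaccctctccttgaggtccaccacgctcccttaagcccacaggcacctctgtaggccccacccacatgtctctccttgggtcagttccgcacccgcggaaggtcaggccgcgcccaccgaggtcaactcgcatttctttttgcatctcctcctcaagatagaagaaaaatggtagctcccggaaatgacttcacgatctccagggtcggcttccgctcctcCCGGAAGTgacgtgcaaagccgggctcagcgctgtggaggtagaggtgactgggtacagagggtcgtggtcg
Ndufb8 (chr1:253362887-253363186, minus strand, GRCr8): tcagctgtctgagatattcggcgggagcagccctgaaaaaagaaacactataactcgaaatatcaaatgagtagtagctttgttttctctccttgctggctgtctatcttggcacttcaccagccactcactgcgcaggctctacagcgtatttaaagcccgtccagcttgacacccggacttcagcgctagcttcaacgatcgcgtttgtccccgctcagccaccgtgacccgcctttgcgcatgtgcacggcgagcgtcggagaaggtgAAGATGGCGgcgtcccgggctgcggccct
In Ndufaf4 the core begins 158 bases before the start of the gene, in Ndufa11 97 and in Atp5i 76. The ETS site of Uqcrq begins 22 bases before the start and the YY1 site of Ndufb8 begins 21 bases after it.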

How the data were processed

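MECs were profiled by RNA-seq in 13 rats, 6 at 6 weeks and 7 at 10 weeks, grouped by the labels. Nothing in the labels gives a batch. The deposited table holds 1 value per gene and rat, which is a score and not a raw count: the authors counted with RSEM 1.2.22 (build rn5 per the submitters' processing notes), scaled each library and rounded to whole numbers. Scaling factors differ between rats, so a low value rests on more reads in some rats than in others. The table's columns of the authors' own comparison (fold changes, likelihood ratios, p-values) were not used, and the count models DESeq2 and edgeR, which the authors list, were not run on these scaled values.

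Values were transformed to log2(value + 1), genes with a mean of at least 1 were kept (all 14790), and ages were compared with limma 3.58.1 (R 4.3.3), two-sided, with Benjamini-Hochberg adjustment and a threshold of 0.05. Errors beside log2 fold changes are standard errors. Tables were made with Python 3.11.15, pandas 2.3.3 and numpy 2.4.6 and figures with matplotlib 3.10.9. The procedure was checked on simulated data.

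Genes named in the text were the mitochondrial rows, all called members and list genes, isoform pairs and a fixed set of core subunits. All other members, among them Atp5i, Atp5e, Uqcrh and Ndufa11, and the regulators without a call were named after their values were seen. The values of 1 called subunit of complex I, which enters all counts and medians, are not reported here. The members and lists were chosen with earlier results of these data known. Alternatives covered 4 other scalings, a pseudocount of 0.1, other filters (at least 10 in every rat, or none), a mean-variance trend, weights per rat, terms for unlabelled variation and depth, and leaving out rats.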

Additional observations from a re-analysis of the deposited data

Results flagged for a closer look

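Of 140 groups examined, each 1 gene or summed level at 1 age, 9 held a rat that stood apart from the others of its age by Dixon's test, and chance flags about 1 in 20 groups. At 10 weeks rat 81 stood high for Uqcrq (274, the nearest rat at 126), Sdha (778, nearest 560), Timmdc1 (64, nearest 43) and AY172581.19 (18, nearest 9). Rat 85 stood high for Uqcrh (1017, nearest 668), Cox7a2 (657, nearest 465) and Sdhaf1 (142, nearest 91), and rat 74 for Cox20 (580, nearest 428). At 6 weeks rat 86 stood high for AY172581.24 (4374229, nearest 2826483). All values are normalized counts.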

How the results depend on the processing

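No paired analysis was possible because the ages share no rat number. Values follow for results that moved, and the cause was not tested for any of them. Nuclear members called higher at 6 weeks, 10 as reported, numbered 52 in the larger set of rats alone, 20 with scaling on rows outside the mitochondrial genome, 65 with weights per rat, 0 in the smaller set of rats alone and 1 without rats 70 and 84. The calls higher at 6 weeks over all genes, 1288 as reported, numbered 1987, 1746, 3009, 0 and 563 in these fits, in the same order. With 1 rat left out the members called higher at 6 weeks ran from 1 (without rat 70, 84, 72 or 74) through 2 (87), 3 (71, 78 or 83) and 5 (86) to 17 (80), 20 (75) and 22 (81). Over all genes such calls then ran from 803 (without rat 70) to 1461 (without rat 81). Members called higher at 10 weeks, 2 as reported, numbered 1 in the larger set, with library size scaling, with a mean-variance trend and with scaling on rows outside the mitochondrial genome, 0 in the smaller set and without rats 70 and 84, and 1 to 2 with 1 rat left out. The nuclear median turned to -0.0601 in the smaller set. It stayed between 0.389 and 0.609 with 1 rat left out.

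The following log2 fold changes changed sign, none of them called. With library size scaling Mt-atp6 was 0.00490, Mt-atp8 0.0121 and AY172581.9 0.0319. With scaling on rows outside the mitochondrial genome Mt-atp6 was 0.0543, Mt-atp8 0.0615, Mt-nd1 0.0347, Mt-nd4l 0.0207 and AY172581.9 0.0813. With median-ratio scaling Mt-cyb was -0.00586. With weights per rat Mt-cox3 was -0.0527, Mt-cyb -0.164 and Mt-nd5 -0.0501. With the total before scaling as a term Mt-cox3 was -0.0456, Mt-cyb -0.0859, Mt-nd5 -0.00295, AY172581.24 -0.0230 and Cox5a -0.0243. Without rats 70 and 84 Mt-atp6 was 0.0637, Mt-atp8 0.146, Mt-nd1 0.0221, Mt-nd4l 0.0760, AY172581.9 0.112 and Cox5a -0.0224. In the larger set Mt-cox3 was -0.00142, Mt-cyb -0.0263 and Ndufa4l2 -0.104. In the smaller set Mt-atp6 was 0.00982, Mt-atp8 0.0803, Mt-nd4l 0.156, AY172581.9 0.172, Cox4i1 -0.105, Cox5a -0.0986, Cox5b -0.249, Cox6a1 -0.0843, Cox6b2 -1.60, Cox7a2 -0.214, Cox7b -0.137, Ndufs7 -0.111, Ndufv2 -0.238, Ndufa11 -0.0176, Sdhb -0.121, Uqcrc2 -0.0108 and Atp5c1 -0.0799. With 1 rat left out the ranges that cross 0 were -0.186 to 0.0686 for Mt-atp6, -0.168 to 0.0995 for Mt-atp8, -0.0579 to 0.144 for Mt-cox3, -0.135 to 0.122 for Mt-cyb, -0.192 to 0.0203 for Mt-nd1, -0.196 to 0.0207 for Mt-nd4l, -0.0184 to 0.214 for Mt-nd5, -0.0357 to 0.202 for AY172581.24, -0.122 to 0.0784 for AY172581.9 and -0.131 to 0.394 for Ndufa4l2.

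With 6 and 7 rats, low members such as Cox6b2, Cox4i2, Ndufaf6 and AY172581.15 have standard errors close to 0.5 or above, so that a difference of the size seen over the nuclear members was not detectable for them. Higher members could miss the threshold at such a difference too, as Atp5l (0.50 ± 0.22, adjusted p = 0.135 in limma) and Cox7c (0.50 ± 0.23, adjusted p = 0.147) did. Atp5sl passed it at 0.50 ± 0.15 (adjusted p = 0.0405).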
